A study of Glycine max with 24 samples.

Results

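Expression of 9 genes of the soybean isoflavone and glyceollin pathway was followed in leaves and roots of a GmNFYA overexpressor and its wild-type cultivar, with and without salt. The genes were taken from a list of IDs, 9 of the 57105 named in the deposited count tables. They are the isoflavone synthases IFS1 (Glyma.07G202300) and IFS2 (Glyma.13G173500), the chalcone isomerases CHI1A (Glyma.20G241500) and CHI1B2 (Glyma.10G292200), the cytochrome P450 CYP93A1 (Glyma.03G143700), the prenyltransferases G4DT (Glyma.10G295300) and G2DT (Glyma.20G245100), and the regulators MYB29A2 (Glyma.02G005600) and NAC42-1 (Glyma.02G284300). The names came with the list. In RefSeq's gene table for the assembly Glycine_max_v4.0, 8 of the 9 names are gene symbols, and each of the 8 lies on the chromosome that its ID names: 7 for IFS1, 13 for IFS2, 20 for CHI1A and G2DT, 10 for CHI1B2 and G4DT, 3 for CYP93A1 and 2 for NAC42-1. MYB29A2 is there only as a synonym of MYB29 on chromosome 10, whereas its ID names chromosome 2, so that this name is the least certain of the 9.

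Wild-type plants of the cultivar Jack were compared with a transgenic soybean labelled as overexpressing GmNFYA. Proteins of the NF-YA family give the trimeric NF-Y factor its contact with CCAAT boxes in promoters. Leaves and roots of each genotype were sampled untreated at 0 h or 6 h into treatment with 150 mM NaCl. There are 8 such groups, each of 3 libraries, and 24 libraries in all. The overexpressor libraries carry 1 line name, and no source used here gives the promoter of the transgene or the age of the plants. The series names no untreated group at 6 h, so that NaCl and the elapsed time cannot be told apart. Replicates are numbered, but no label says that each is a separate plant. The p-values below therefore reflect only the spread among these samples, and that spread may be technical.

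Isoflavonoids are made in legumes from phenylalanine by way of a chalcone. Chalcone isomerase closes the chalcone to a flavanone, isoflavone synthase, a cytochrome P450, moves its aromatic side ring to give the isoflavone skeleton, and a dehydratase completes daidzein and genistein. Daidzein is then hydroxylated, reduced and cyclised to a pterocarpan, which CYP93A1 hydroxylates to glycinol. The prenyltransferases G4DT and G2DT add a prenyl group to glycinol at different positions, and further closure gives the glyceollins, the phytoalexins of soybean, which accumulate in roots and other organs after attack by pathogens. In elicited soybean hairy roots, the MYB protein MYB29A2 and the NAC protein NAC42-1 are known activators of glyceollin pathway genes.

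Reads assigned to genes numbered 17696429 to 21053889 per leaf library and 17005570 to 23459341 per root library. Levels are given as CPM, the count of a gene relative to the sum of all gene counts in its library, scaled by TMM over all 24 libraries, and were not compared between genes, since the tables hold no gene lengths. All 9 genes passed the filter on low counts in every fit. The ID 02G303800, which earlier work on these data had singled out by its level and which no table used here pairs with NF-YA, had group means of 342 to 774 CPM in the overexpressor, and of 1.25 to 27.4 CPM in the wild type. The 4 leaf marker IDs, for Rubisco small subunit and Rubisco activase, summed to between 7250 and 23600 CPM in leaf libraries and between 8.45 and 46.2 CPM in root libraries. Among the 3 leaf Jack libraries with NaCl, replicate 1 was the highest for 9 of the 9 genes. Where leaving it out changed a leaf call of the 9 genes, the values without it are given too. In untreated Jack roots, 9.63 ± 0.58% of reads (SD, n = 3) had more than 1 alignment and counted for no gene, against group means of 5.48 to 6.41% in the other 3 root groups. IFS1 and IFS2 are near-identical paralogs, and reads that fit both are lost to either.

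**Figure D1:**
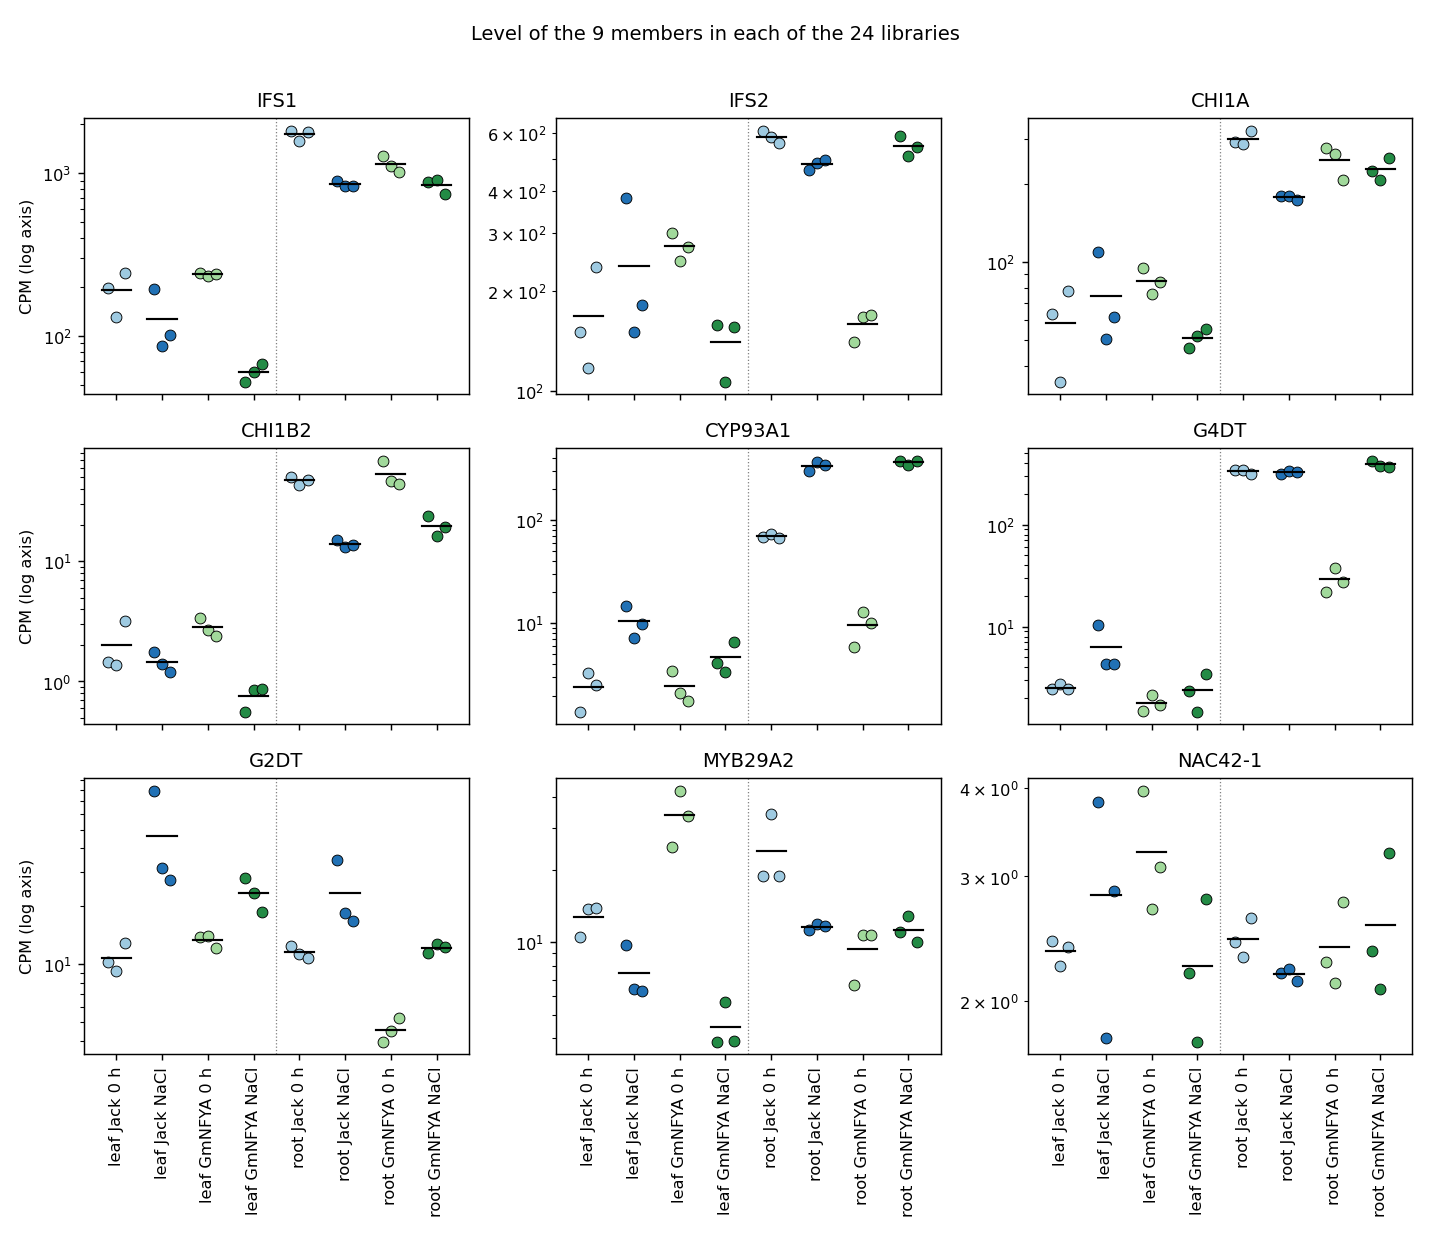
Level of each of the 9 genes in each of the 24 libraries, in CPM on log axes that differ between panels; points are libraries (3 per group, replicates 1 to 3 from left to right) and bars are group means. In untreated GmNFYA roots (light green, right of the dotted line), G4DT stood at 21.9 to 37.6 CPM against 314 to 342 CPM in untreated Jack roots.

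Most of the 9 genes were more highly expressed in root than in leaf, with G2DT and NAC42-1 as exceptions. In untreated Jack, edgeR's quasi-likelihood test called 7 of the 9 genes higher in root and 0 lower, where called means an adjusted p (Benjamini-Hochberg over all IDs of the fit) under 0.05. Over all 39003 IDs tested, 36.2% were called higher and 33.7% lower in root, which are shares of similar size in both directions. Where 0 of the 9 genes are given below as called in a direction, 0 also had an unadjusted p under 0.05 in that direction and DESeq2 called 0, except for a rise with NaCl in GmNFYA leaf. G4DT showed the widest difference, with 2.43, 2.72 and 2.44 CPM in leaf and 342, 340 and 314 CPM in root, 131-fold higher (log2 7.04 ± 0.32 SE, edgeR adjusted p = 2.96e-14). CYP93A1 was 28.8-fold higher in root and CHI1B2 23.6-fold higher. IFS1 was 9.11-fold, CHI1A 5.12-fold, IFS2 3.46-fold and MYB29A2 1.88-fold higher. For these 7 genes the leaf and root libraries did not overlap. G2DT and NAC42-1 were not called and their libraries overlapped between the organs. In a whole organ, fewer cells of a type and less RNA per cell cannot be told apart.

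With NaCl, Jack again had 7 genes called higher in root (34.4% of all IDs) and 1 called lower (35.5% of all IDs). The lower one was G2DT, at 79.6, 31.4 and 27.5 CPM in leaf and 34.9, 18.4 and 16.8 CPM in root. Its groups overlapped, and the call rested on replicate 1 of leaf Jack with NaCl: without that library the log2 difference fell from -0.98 to -0.33 and the edgeR adjusted p rose from 0.00821 to 0.196. MYB29A2, at log2 0.63, lost its call when replicate 2 or 3 of either Jack group with NaCl, leaf or root, was left out (adjusted p 0.0667 to 0.122).

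Untreated GmNFYA plants departed from this order. In them 5 genes were called higher in root (36.7% of all IDs) and 3 lower (34.2% of all IDs). The 3 lower genes were IFS2 (1.71-fold lower, edgeR adjusted p = 0.0117), G2DT (2.92-fold, 0.000574) and MYB29A2 (3.6-fold, 8.91e-07). The call for IFS2 was lost without replicate 1 of untreated GmNFYA root (adjusted p = 0.057). With NaCl, the same plants had 7 genes called higher in root (35.5% of all IDs), with G4DT 159-fold and CYP93A1 76.5-fold higher, and 1 called lower (33.9% of all IDs), G2DT, which was 1.93-fold lower and lost its call without replicate 1 of leaf GmNFYA with NaCl (adjusted p = 0.0548).

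The largest differences between the genotypes among the 9 genes were in untreated roots. Of the 9 genes, 6 were lower in GmNFYA than in Jack and 0 were higher, against 12.6% of the 36390 root IDs called lower and 10.7% called higher. The median log2 difference of the 9 genes was -1.35, and that of all IDs 0.01. G4DT, CYP93A1 and IFS2 had the largest differences, the regulator MYB29A2, G2DT and IFS1 smaller ones, and the chalcone isomerases and NAC42-1 none that passed the test.

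The prenyltransferase G4DT stood at 342, 340 and 314 CPM in the untreated Jack roots and at 21.9, 37.6 and 27.5 CPM in the untreated GmNFYA roots. Every GmNFYA library was thus far below every Jack library, an 11.6-fold difference (log2 -3.54 ± 0.153 SE, edgeR adjusted p = 9.14e-10). CYP93A1, which forms the glycinol that G4DT prenylates, stood at 68, 72.7 and 67.3 CPM in Jack and at 5.94, 12.8 and 10 CPM in GmNFYA. The groups did not overlap, and the difference was 7.32-fold (log2 -2.87 ± 0.195, edgeR adjusted p = 4.18e-07). G2DT, the other prenyltransferase, stood at 12.4, 11.3 and 10.8 CPM in Jack and at 3.96, 4.51 and 5.24 CPM in GmNFYA, 2.55-fold lower without overlap (log2 -1.35 ± 0.244, edgeR adjusted p = 0.00171).

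The 2 isoflavone synthases were both lower in untreated GmNFYA roots, with the larger fold difference in IFS2. IFS2 stood at 609, 584 and 560 CPM in untreated Jack roots and at 141, 168 and 170 CPM in untreated GmNFYA roots, 3.71-fold lower (log2 -1.89 ± 0.0993, edgeR adjusted p = 4.55e-09). IFS1 stood at 1830, 1580 and 1790 CPM in Jack and at 1270, 1110 and 1020 CPM in GmNFYA, 1.55-fold lower (log2 -0.64 ± 0.111, edgeR adjusted p = 0.000735). Neither gene's groups overlapped; a test of IFS1 against IFS2 was not made. The regulator MYB29A2 stood at 18.9, 34 and 18.9 CPM in Jack and at 6.64, 10.7 and 10.7 CPM in GmNFYA, 2.59-fold lower without overlap (edgeR adjusted p = 0.00142).

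Among the genes not called in untreated root, CHI1A had a log2 difference of -0.29 ± 0.107 (edgeR adjusted p = 0.0606), which passed the threshold with DESeq2 (0.0421) and without replicate 1 of untreated GmNFYA root (0.0372). CHI1B2 had 0.16 ± 0.161 and NAC42-1 -0.07. The share of multiply aligned reads was also higher in untreated Jack roots (9.24 to 10.3% per library, against 5.19 to 5.88% in untreated GmNFYA roots). It thus differed along with the genotype in this comparison, and its part in the differences between these groups was not tested. The summed leaf markers were 19.6 to 35.1 CPM in those Jack libraries and 8.45 to 13 CPM in the GmNFYA libraries, with 2 of 4 marker IDs called lower in GmNFYA.

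**Figure D2:**
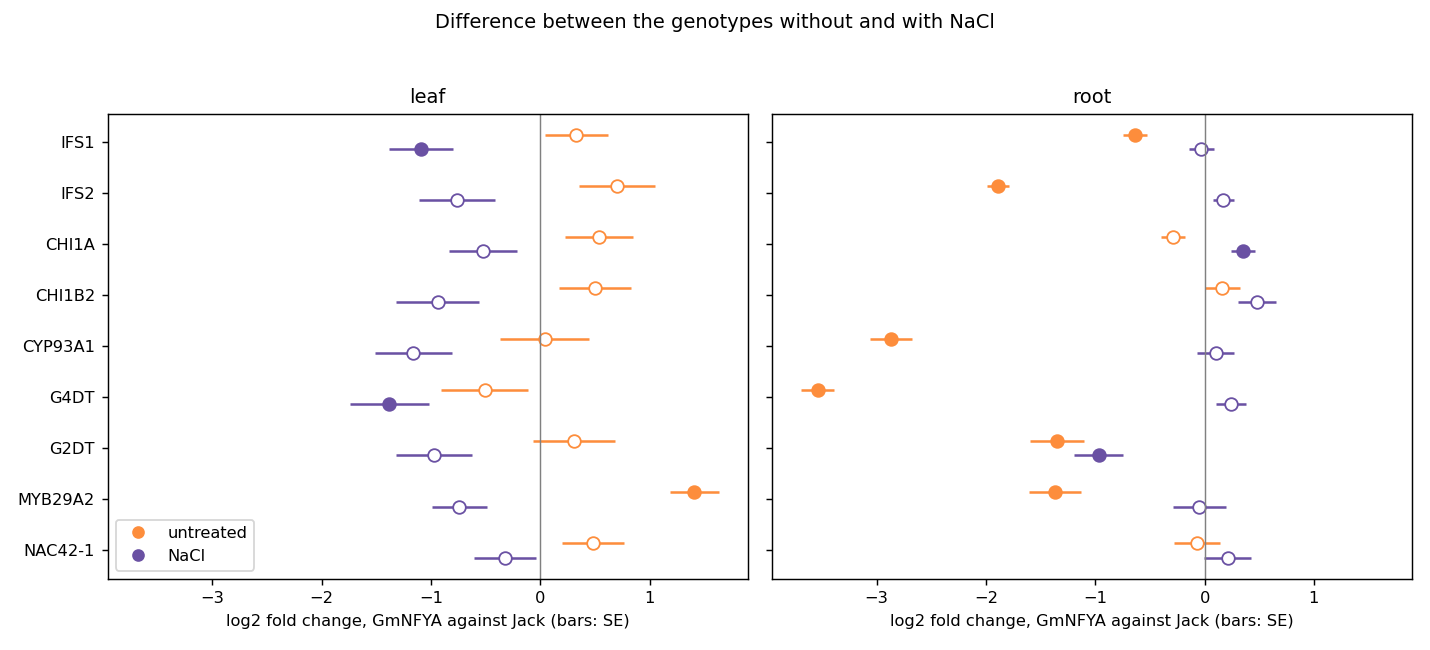
Log2 difference between GmNFYA and Jack for each gene in leaf and root, untreated (orange) and with NaCl (purple); bars are SE, filled points were called and open points were not. In root, the untreated points reach -3.54 for G4DT, while the NaCl points of the same genes, other than G2DT, lie between -0.05 and 0.48.

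In Jack roots, NaCl raised 2 of the 9 genes and lowered 5, against 29% of all root IDs called higher and 27.9% called lower, so that the share of the 9 that rose was below that of all IDs. Both isoflavone synthases and both chalcone isomerases fell, as did MYB29A2, while CYP93A1 and G2DT rose. CYP93A1 went from 68, 72.7 and 67.3 CPM to 298, 366 and 339 CPM, 4.86-fold higher without overlap (log2 2.28 ± 0.18, edgeR adjusted p = 1.96e-07). G2DT went from 12.4, 11.3 and 10.8 CPM to 34.9, 18.4 and 16.8 CPM, 2.06-fold higher (log2 1.04 ± 0.222, edgeR adjusted p = 0.0014), with replicate 1 well above the other 2 NaCl libraries. G4DT, at 317, 333 and 331 CPM with NaCl, stayed within the range of the untreated libraries (log2 -0.01 ± 0.137).

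Among the genes that fell in Jack roots, CHI1B2 fell most, from 50.5, 43.2 and 48 CPM to 15.1, 13.3 and 13.7 CPM, 3.34-fold lower (edgeR adjusted p = 2.09e-06). IFS1 went to 894, 840 and 830 CPM, 2.02-fold lower. CHI1A, from 290, 286 and 322 CPM to 180, 180 and 174 CPM, was 1.67-fold lower. The groups of these 3 genes did not overlap. MYB29A2 went to 11.3, 11.9 and 11.7 CPM, 2.04-fold lower (edgeR adjusted p = 0.00248). The fall of IFS2, to 463, 486 and 496 CPM, was 1.21-fold (edgeR adjusted p = 0.0248) and was lost without replicate 1 of the untreated group or replicate 1 or 2 of the NaCl group (adjusted p 0.0547 to 0.0799).

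In GmNFYA roots, NaCl raised 4 genes and lowered 2, against 28.6% of all root IDs called higher and 28.1% called lower. CYP93A1 rose from 5.94, 12.8 and 10 CPM to 375, 339 and 370 CPM, 38-fold (log2 5.25 ± 0.211, edgeR adjusted p = 2.29e-10). G4DT rose from 21.9, 37.6 and 27.5 CPM to 424, 373 and 371 CPM, 13.5-fold (log2 3.76 ± 0.155, edgeR adjusted p = 3.08e-11). For both genes every NaCl library was many times above every untreated one.

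IFS2 rose in the same roots from 141, 168 and 170 CPM to 587, 512 and 542 CPM, 3.46-fold (log2 1.79 ± 0.099, edgeR adjusted p = 4.37e-10). G2DT rose from 3.96, 4.51 and 5.24 CPM to 11.4, 12.7 and 12.3 CPM, 2.68-fold (edgeR adjusted p = 0.000244). The genes that fell were CHI1B2, from 69, 46.6 and 44.3 CPM to 23.9, 16.3 and 19.4 CPM (2.66-fold), and IFS1, from 1270, 1110 and 1020 CPM to 886, 908 and 749 CPM (1.32-fold, edgeR adjusted p = 0.00546). CHI1A, MYB29A2 and NAC42-1 were not called, and their untreated and NaCl libraries overlapped.

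**Figure D3:**
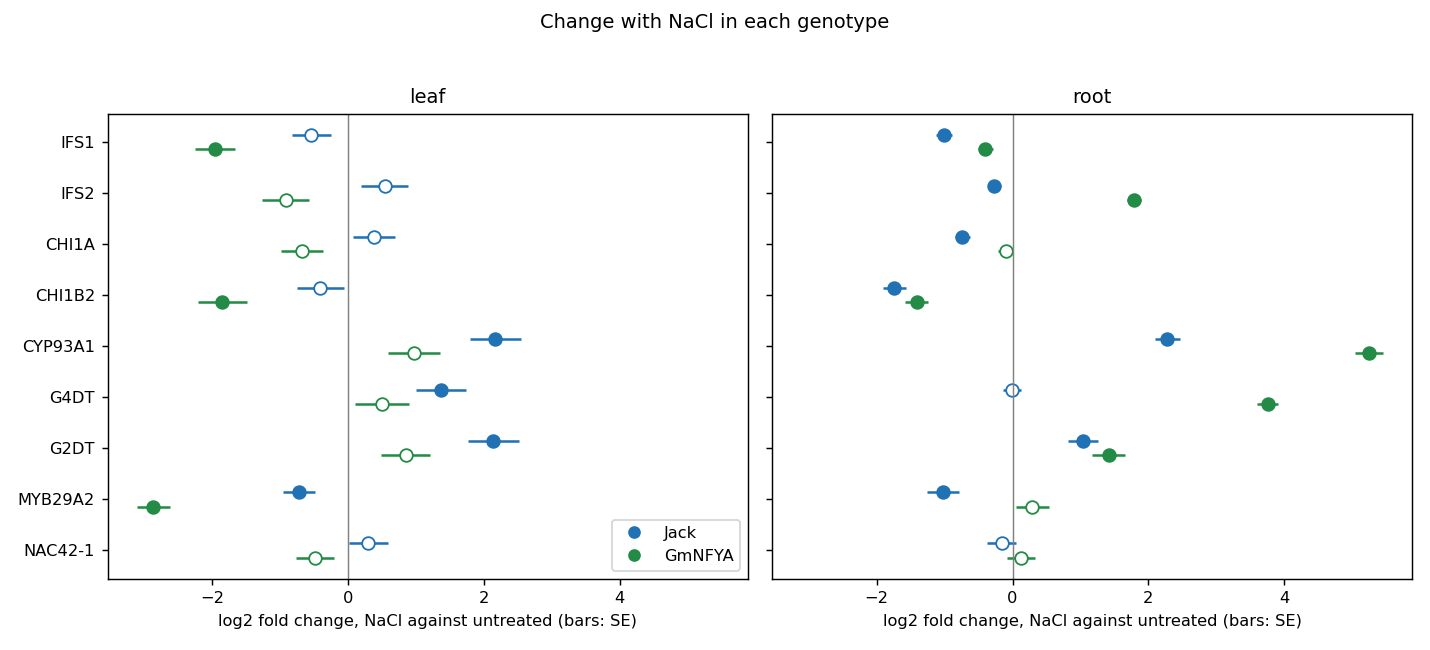
Log2 change with NaCl for each gene in leaf and root of Jack (blue) and GmNFYA (green); bars are SE, filled points were called and open points were not. In root, CYP93A1 changed by 2.28 in Jack and 5.25 in GmNFYA, and G4DT by -0.01 and 3.76.

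The NaCl responses of the 2 genotypes in root were compared directly by the genotype by NaCl interaction, the change in GmNFYA minus the change in Jack. It was called higher for 6 of the 9 genes and lower for 0, against 4.28% of all IDs called higher and 4.01% called lower. The log2 difference between the responses was 3.77 ± 0.202 for G4DT (edgeR adjusted p = 1.06e-07), 2.97 ± 0.257 for CYP93A1 (2.19e-05) and 2.06 ± 0.137 for IFS2 (4.24e-07). It was 1.32 ± 0.337 for MYB29A2 (0.0319), 0.64 ± 0.152 for CHI1A (0.0158) and 0.61 ± 0.157 for IFS1 (0.0252). The call for IFS1 was lost without replicate 2 of untreated GmNFYA, 1 or 2 of GmNFYA with NaCl, 1 or 3 of untreated Jack or 2 of Jack with NaCl (adjusted p up to 0.0706). That for MYB29A2 was lost without replicate 1 or 2 of GmNFYA with NaCl or any replicate of Jack with NaCl (up to 0.0814), and with no low-count filter (0.0508). G2DT was not called (0.38, adjusted p = 0.544), but without replicate 1 of root Jack with NaCl its difference was 0.79 (adjusted p = 0.00734). The untreated libraries of both genotypes enter this interaction as they do the untreated comparison above, so that the 2 results share their samples.

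With NaCl, few of the genes differed between the roots of the genotypes by the test. Of the 9, 1 was called higher in GmNFYA (7.05% of all IDs) and 1 lower (9.9% of all IDs). CHI1A was higher, at 226, 208 and 252 CPM against 180, 180 and 174 CPM, 1.27-fold (edgeR adjusted p = 0.037), a call lost without any 1 of the 6 libraries compared other than replicate 2 of GmNFYA (adjusted p 0.0551 to 0.151). G2DT was lower, at 11.4, 12.7 and 12.3 CPM against 34.9, 18.4 and 16.8 CPM, 1.96-fold (edgeR adjusted p = 0.0106). That call was lost when only the groups compared were fitted (adjusted p = 0.0667). Neither gene's groups overlapped.

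G4DT stood at 424, 373 and 371 CPM in GmNFYA roots with NaCl against 317, 333 and 331 CPM in Jack, a log2 difference of 0.24 ± 0.137. CYP93A1 had 0.1 ± 0.171 and IFS2 0.17 ± 0.0958. None of the 3 was called, and G4DT and IFS2 did not overlap between the genotypes. CHI1B2 had 0.48 ± 0.176 (edgeR adjusted p = 0.0786), with adjusted p of 0.0149 to 0.0448 in 4 of its 11 alternative fits.

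In leaf, the calls with NaCl fell mostly on the late genes in Jack, and on IFS1, CHI1B2 and MYB29A2 in GmNFYA. The direct test of the genotype by NaCl interaction in leaf called none of the late genes. Its edgeR adjusted p was 0.293 for CYP93A1, 0.476 for G4DT and 0.24 for G2DT. In Jack leaves 3 genes rose and 1 fell, against 17.8% of the 35222 leaf IDs called higher and 15.7% called lower. The 3 that rose were the late genes. CYP93A1 went from 1.4, 3.31 and 2.56 CPM to 14.8, 7.2 and 9.77 CPM, 4.51-fold without overlap (log2 2.17 ± 0.381, edgeR adjusted p = 0.00119). G2DT went from 10.2, 9.21 and 12.8 CPM to 79.6, 31.4 and 27.5 CPM, 4.41-fold (log2 2.14 ± 0.37, edgeR adjusted p = 0.00171). G4DT went from 2.43, 2.72 and 2.44 CPM to 10.5, 4.28 and 4.34 CPM, 2.59-fold (log2 1.37 ± 0.366, edgeR adjusted p = 0.0122). Replicate 1 was the highest NaCl library in each of these.

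Without that library, CYP93A1 was at log2 1.84 (edgeR adjusted p = 0.003), G2DT at 1.48, a 2.79-fold change (6.06e-05), and G4DT at 0.8, which was no longer called (0.0561). IFS1, at 197, 130 and 244 CPM untreated and 195, 86 and 101 CPM with NaCl, was not called with it (log2 -0.54, edgeR adjusted p = 0.172) and was called lower without it (log2 -1, adjusted p = 0.00379). The gene that fell was MYB29A2, from 10.5, 13.8 and 13.9 CPM to 9.78, 6.41 and 6.26 CPM, 1.65-fold (edgeR adjusted p = 0.032). Its groups did not overlap, and the call was lost without replicate 2 or 3 of either group (adjusted p 0.0838 to 0.109).

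In GmNFYA leaves NaCl lowered 3 genes and raised 0, against 18.2% of all leaf IDs called lower and 17.8% called higher. MYB29A2 fell from 24.8, 42.7 and 33.5 CPM to 3.87, 5.64 and 3.9 CPM, 7.32-fold without overlap (log2 -2.87 ± 0.244, edgeR adjusted p = 4.72e-06). IFS1 fell from 244, 233 and 239 CPM to 52.2, 59.6 and 66.8 CPM, 3.89-fold without overlap (log2 -1.96 ± 0.3, edgeR adjusted p = 0.000476). CHI1B2 fell from 3.38, 2.7 and 2.37 CPM to 0.561, 0.845 and 0.861 CPM, 3.6-fold (edgeR adjusted p = 0.00149). These low levels rest on 64, 43 and 43 reads untreated and on 11, 15 and 17 reads with NaCl, near the filter's minimum count of 10. IFS2 and CHI1A had log2 changes of -0.92 and -0.68, and CYP93A1, G4DT and G2DT had 0.97, 0.5 and 0.85, none of them called. CYP93A1 and G2DT had an unadjusted p under 0.05 for a rise, and CYP93A1 was called without replicate 1 of the untreated group (log2 1.32, edgeR adjusted p = 0.0383). The counts here depend on the fit: DESeq2 called 2 genes higher and 4 lower, and a fit of the 2 groups alone 2 higher and 5 lower. Replicate 3 of leaf GmNFYA with NaCl had 9.29% multiply aligned reads against 4.87 and 5.01% in the other 2. It did not decide a call of this comparison: without it the same 3 genes were called.

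The untreated leaves of the genotypes differed in 1 of the 9 genes. MYB29A2 was 2.66-fold higher in GmNFYA, at 24.8, 42.7 and 33.5 CPM against 10.5, 13.8 and 13.9 CPM in Jack (log2 1.41 ± 0.225, edgeR adjusted p = 0.00513). The groups did not overlap, and 1 gene higher and 0 lower stand beside 2.3% and 2.21% of all leaf IDs. With NaCl, 0 genes were higher in GmNFYA leaves (3.65% of all IDs) and 2 were lower (5.95% of all IDs). These were G4DT, at 2.34, 1.47 and 3.45 CPM against 10.5, 4.28 and 4.34 CPM (2.6-fold, edgeR adjusted p = 0.0324), and IFS1, at 52.2, 59.6 and 66.8 CPM against 195, 86 and 101 CPM (2.12-fold, 0.0417). Without replicate 1 of leaf Jack with NaCl both calls were lost (adjusted p of 0.121 and 0.0806), with log2 differences of -0.79 and -0.62. The calls were also lost without replicate 1 or 2 of GmNFYA with NaCl, and that of IFS1 without replicate 3 of either NaCl group (adjusted p 0.0533 to 0.136). CYP93A1 was not called (log2 -1.16, edgeR adjusted p = 0.062). It was called lower without replicate 3 of GmNFYA with NaCl (-1.46, 0.0484) or replicate 2 of Jack with NaCl (-1.35, 0.0479). The log2 difference was below 0 for all 9 genes, with a median of -0.94 against -0.01 for all IDs. Replicate 1 of leaf Jack with NaCl, the highest of its group for all 9 genes, lowers every one of these differences. Over the alternative fits, the value nearest to 0 ran by gene from -0.81 for CYP93A1 to -0.21 for IFS2, -0.1 for CHI1A and 0 for NAC42-1.

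In leaf the interaction was called lower for MYB29A2 (log2 -2.15 ± 0.335, edgeR adjusted p = 0.00967) and higher for 0 of the 9 genes, against 1.67% and 0.781% of all leaf IDs. The other 8 genes were not called. The interaction was nevertheless below 0 for all 9, with a median of -1.29 against 0 for all leaf IDs. IFS1 (-1.42, edgeR adjusted p = 0.106) and IFS2 (-1.46, 0.163) were called lower with DESeq2 (adjusted p = 0.0114 and 0.0307). Replicate 1 of leaf Jack with NaCl, the highest of its group for all 9 genes, lowers each of these values. Without replicate 3 of untreated Jack leaf, CHI1B2 was also called (-1.94, edgeR adjusted p = 0.0279). MYB29A2 thus had a genotype by NaCl interaction of opposite sign in the 2 organs, -2.15 in leaf and 1.32 in root. Its root call was lost in 6 of 16 alternative fits. The signs were not particular to MYB29A2. In root the interaction was above 0 for all 9 genes, with a median of 0.64, and in leaf below 0 for all 9. The order of levels of MYB29A2 also ran across the organs. The highest group mean was 33.7 CPM in untreated GmNFYA leaf, followed by 23.9 CPM in untreated Jack root, which overlapped it. Then came untreated Jack leaf at 12.7 CPM and the 3 other root groups at 9.34 to 11.6 CPM, neighbours that overlapped, followed by Jack leaf with NaCl at 7.48 CPM and last GmNFYA leaf with NaCl at 4.47 CPM.

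NAC42-1 varied least of the 9 genes, with an SD of 0.249 log2 units over the 24 libraries. Its group means lay between 2.18 and 3.25 CPM, and neighbouring groups in the order of levels overlapped throughout. It was called in 0 of the 16 comparisons by edgeR and in 0 by DESeq2, and had an unadjusted p under 0.05 in 0. In 1 alternative fit, without replicate 2 of leaf Jack with NaCl, it was called lower in root than in leaf of Jack with NaCl (log2 -0.62, edgeR adjusted p = 0.0269).

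Across the organs, the NaCl response in root minus that in leaf was called lower for 3 genes and higher for 0 in Jack, against 12.5% and 14.2% of all IDs. The 3 were G4DT (log2 -1.36 ± 0.387, edgeR adjusted p = 0.0123), CHI1B2 (-1.31 ± 0.37, 0.0116) and CHI1A (-1.09 ± 0.334, 0.0191). All 3 calls were lost without replicate 1 of leaf Jack with NaCl (adjusted p of 0.053, 0.0528 and 0.0703, at log2 -0.79, -1.15 and -0.69). Without replicate 2 of that group, IFS2 and G2DT were called too, 5 genes in all.

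In GmNFYA the same difference was called higher for 5 genes and lower for 0, against 17.5% and 16.2% of all IDs. It was 4.31 ± 0.463 on the log2 scale for CYP93A1 (edgeR adjusted p = 6.03e-07), 3.28 ± 0.445 for G4DT (8.6e-06), 3.19 ± 0.364 for MYB29A2 (8.83e-07), 2.74 ± 0.372 for IFS2 (8.62e-06) and 1.59 ± 0.317 for IFS1 (0.000479). All 5 were called whichever single library was left out.

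The order of group means showed how far root and leaf were apart for each gene. For IFS1, CHI1A, CHI1B2 and G4DT, the 4 root groups were the 4 highest. IFS1 ran from 1730 CPM in untreated Jack root to 848 CPM in GmNFYA root with NaCl, and then from 239 to 59.5 CPM over the leaf groups. CYP93A1 was highest in the roots with NaCl, at 362 CPM in GmNFYA and 334 CPM in Jack, which overlapped. Untreated GmNFYA root, at 9.58 CPM, fell between leaf Jack with NaCl (10.6 CPM) and leaf GmNFYA with NaCl (4.7 CPM) and overlapped both. IFS2 in untreated GmNFYA root, at 160 CPM, lay among the leaf groups in the same way. G2DT had its highest group mean in Jack leaf with NaCl, at 46.2 CPM, of which replicate 1 was at 79.6 CPM and the other libraries at 31.4 and 27.5 CPM. GmNFYA leaf and Jack root, both with NaCl, followed at 23.4 CPM each and overlapped.

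The other steps of the pathway were followed with 36 further IDs in 12 steps, which were recalled from publications and are not tied to an annotation here. In the RefSeq table, 33 of the 36 lie on a chromosome that holds a gene named for their step. In untreated root, 35 of them were tested. Of these, 18 were lower in GmNFYA (12.6% of all root IDs) and 3 higher (10.7% of all root IDs), with a median log2 difference of -0.49. The lower calls were thus more frequent than among all IDs, and the higher ones were not. All general phenylpropanoid steps had lower members. Of the 7 IDs for phenylalanine ammonia lyase (PAL), 5 were lower, led by 03G181600 (log2 -2.33 ± 0.149), and 2 were higher, led by 02G309300 (0.96 ± 0.0986). The cinnamate hydroxylase (C4H) ID 20G114200 had the largest difference of the list, 449 ± 52.2 CPM in Jack (SD, n = 3) against 51.9 ± 12.4 CPM in GmNFYA (log2 -3.13 ± 0.161, edgeR adjusted p = 6.28e-09). Of the 4 IDs for coumarate CoA ligase (4CL), 2 were lower, and both chalcone synthase IDs, named CHS7 and CHS8, were lower at -0.57 and -0.82.

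Chalcone reductase (CHR), which directs the pathway to daidzein, had 1 of 5 IDs lower (02G307300, log2 -1.22) and 1 higher (16G219500, 0.98). The isoflavanone dehydratase ID (HIDH, 01G239600) was lower, at -0.9 ± 0.086. On the way from daidzein to the pterocarpan, 1 of 2 isoflavone hydroxylase IDs (I2H, 09G048900) was lower, with 22.2 ± 3.15 CPM in Jack and 3.72 ± 1.72 CPM in GmNFYA (log2 -2.61 ± 0.269). Among the isoflavone reductase IDs (IFR), 1 of 3 was lower (11G070500, -2.43 ± 0.146). The further prenyltransferase ID 01G134600 was lower, at -1.48 ± 0.165. Of the 3 further MYB IDs, 2 were lower, led by 10G006600 (-2.36 ± 0.309). That ID names chromosome 10, where RefSeq has the gene MYB29 with MYB29A2 as a synonym. Whether 10G006600 or 02G005600 is the gene known as MYB29A2 was not tested. The 2 other chalcone isomerase IDs and the 2 IDs for conjugation of isoflavones with glucose and malonate were not called.

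**Figure D4:**
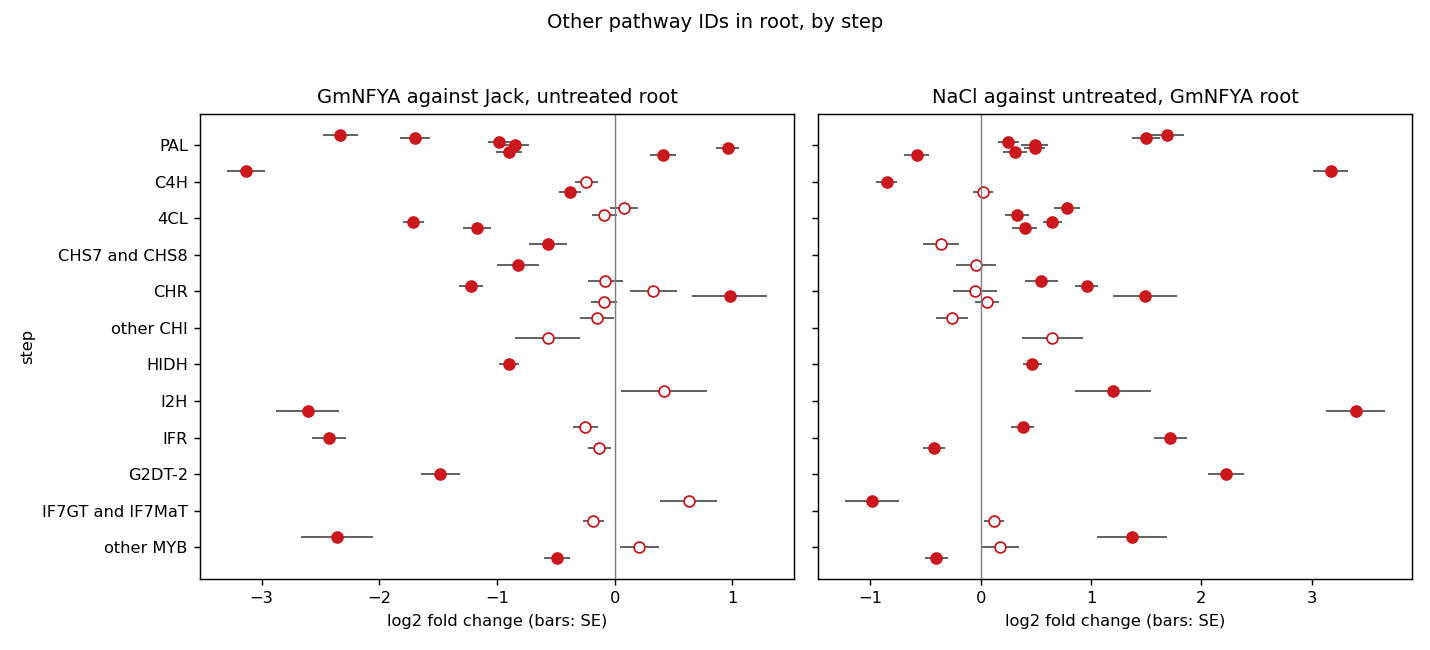
Log2 difference of the further pathway IDs in root, by step (35 tested IDs), between GmNFYA and Jack untreated (left) and between NaCl and untreated in GmNFYA (right); bars are SE, filled points were called and open points were not. The C4H ID 20G114200 lies at -3.13 on the left and 3.17 on the right; the untreated GmNFYA root libraries enter both panels.

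With NaCl, 21 of the 35 tested IDs rose in GmNFYA roots (28.6% of all IDs) and 5 fell (28.1% of all IDs), with a median log2 change of 0.4. In Jack roots 8 rose (29% of all IDs) and 19 fell (27.9% of all IDs), with a median of -0.36. The 8 rises are a smaller share than that of all IDs. The median of all root IDs was 0 in GmNFYA and -0.01 in Jack. In GmNFYA roots, 09G048900 (I2H) rose 10.5-fold (log2 3.4 ± 0.267), 20G114200 (C4H) 8.99-fold and 01G134600 4.65-fold. In Jack roots the first changed by 0.94 ± 0.228 and the third by 1.16 ± 0.153, both called higher, while 20G114200 was called lower at -0.36 ± 0.147. Both chalcone synthase IDs fell in Jack (-1.19 and -0.93) and were not called in GmNFYA, and their interaction was called (0.83 and 0.89, edgeR adjusted p = 0.037 and 0.0481). The interaction in root was called higher for 17 of the 35 IDs (4.28% of all IDs) and lower for 0 (4.01%), with a median of 0.54 against -0.01 for all IDs. Its largest value was 3.53 ± 0.215 for 20G114200 (edgeR adjusted p = 3.12e-07). In roots with NaCl, 3 of the IDs were higher in GmNFYA than in Jack (7.05% of all IDs) and 6 lower (9.9% of all IDs), with a median of -0.05; without replicate 2 of root GmNFYA with NaCl, 2 were lower.

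In GmNFYA leaves, NaCl lowered 15 of the 34 tested IDs (18.2% of all leaf IDs) and raised 4 (17.8%). In Jack leaves it raised 5 (17.8% of all leaf IDs) and lowered 1 (15.7%), neither above the share of all IDs. Without replicate 1 of leaf Jack with NaCl, 5 of the IDs rose and 5 fell in Jack leaves, and without replicate 2 of untreated Jack leaf 6 rose and 8 fell. The largest falls in GmNFYA leaves were those of 11G070500 (IFR, log2 -3.11 ± 0.465, 18.2 ± 0.664 to 2.04 ± 0.208 CPM), 10G006600 (MYB, -2.86 ± 0.492) and 02G307300 (CHR, -2.61 ± 0.666). The prenyltransferase ID 01G134600 and the malonyltransferase ID 13G056100 rose in both genotypes, by 1.84 and 1.39 in Jack and by 1.05 and 0.93 in GmNFYA. Without replicate 1 of leaf Jack with NaCl, the changes in Jack were 1.31 and 1.22, both still called. Between the genotypes, 1 ID was higher (2.3% of all leaf IDs) and 0 lower (2.21%) in untreated leaf, the PAL ID 02G309300 (2.1 ± 0.27), which was also higher in GmNFYA leaf with NaCl (1.61 ± 0.267) and in root with NaCl (2.3 ± 0.104). In leaf with NaCl, that 1 ID was higher in GmNFYA (3.65% of all leaf IDs) and 3 were lower (5.95%). The lower ones were 02G307300 (-2.9), 11G070500 (-2.34) and 05G032200 (-0.5). When single libraries were left out, the number called lower ran from 0 to 4. The leaf interaction was called lower for 2 of the 34 IDs, 11G070500 (-2.77) and 20G209700 (-1.19), and higher for 0, against 1.67% and 0.781% of all leaf IDs. Both were called without replicate 1 of leaf Jack with NaCl (-1.92 and -0.85). Neither was called without any 1 of the 6 GmNFYA leaf libraries or without replicate 1 or 2 of untreated Jack leaf, and DESeq2 called 6 lower. RLE scaling, no low-count filter, the replicate block and leaving out replicate 3 of leaf Jack with NaCl each left 1 of the IDs called lower.

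Similarity of profile was measured as the root mean square difference between centred log2(CPM + 0.5) values over the 24 libraries, among 32698 IDs tested in both organs. For genes with a wide contrast of root with leaf, that contrast enters any such likeness, and its share was not measured. All IDs share the same libraries and depth. The ID nearest to CYP93A1 was 17G030400, at 0.553 log2 units, followed by 01G210400 at 0.621. The nearest of the other 8 genes was G4DT at 1.06, ranked 69 among all IDs. For G4DT the nearest IDs were 19G213100 (0.691) and U032500 (0.699), and CYP93A1 ranked 54. IFS1 and CHI1B2 were each other's nearest of the 9, at 0.608, with ranks of 105 and 60. IFS2 was nearest to 18G242300 (0.336) and 17G089600 (0.418). Its nearest of the 9 was CHI1A, at 0.732, ranked 3058. None of the 2 nearest IDs of any of the 9 genes was in the list of further pathway IDs.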

How the data were processed

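Gene-level RNA-seq read counts were deposited by the authors as whole numbers, not normalized, in 1 table for the 12 leaf and 1 for the 12 root libraries. The labels name TRIzol extraction and standard Illumina library preparation. Per the submitters' processing notes, HISAT2, featureCounts and DESeq2 were used, with no role or version. The sources used here give no build, annotation or strand setting. In each table, 5 rows that name no gene were left out, and 75.5 to 81.2% of the reads in leaf libraries and 70.8 to 78.2% in root libraries were assigned to a gene. Reads with more than 1 alignment count for no gene, and overlapping or antisense genes cannot be separated. IDs were joined across the tables by their number.

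Fits were made with edgeR 4.0.16 in R 4.3.3: filterByExpr with a minimum count of 10, TMM factors, robust dispersions over all groups of a fit and quasi-likelihood F tests. The leaf fit held 35222 IDs, the root fit 36390 and the joint fit of all 24 libraries, for comparisons of organs, 39003. P-values were Benjamini-Hochberg adjusted over all IDs of the fit. An SE is the log2 fold change divided by the root of F. The edgeR test was checked on simulated counts for 3 of the 16 comparisons, 1 from each fit. Of 100 simulated 2-fold changes, it recovered 67 in the leaf, 85 in the root and 67 in the joint fit. Of 100 simulated 4-fold changes, it recovered 97, 99 and 95. False calls numbered 7 of 171, 12 of 196 and 12 of 174 calls, so that a 2-fold change can go uncalled. Alternatives were DESeq2 1.42.0, RLE scaling, no filter, only the groups compared, the replicate number as a block, and leaving out each library; for the further pathway IDs they were added after seeing the data. No 2 libraries of a group held identical counts.

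The members and lists were chosen with earlier results of these data known. All 9 members are named in each comparison, further pathway IDs by step with the largest called rise and fall, and for likeness the 2 nearest IDs.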

Additional observations from a re-analysis of the deposited data

Results flagged for a closer look

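The NaCl responses of several genes differed between the genotypes or the organs by a direct test of the difference (edgeR interaction, adjusted over all IDs). Between the genotypes in root, the response in GmNFYA minus that in Jack was 3.77 on the log2 scale for G4DT, 2.97 for CYP93A1, 2.06 for IFS2, 1.32 for MYB29A2, 0.64 for CHI1A and 0.61 for IFS1. In leaf it was -2.15 for MYB29A2. The root calls for MYB29A2 and IFS1 were each lost in 6 of 16 alternative fits. Between the organs in GmNFYA, the response in root minus that in leaf was 4.31 for CYP93A1, 3.28 for G4DT, 3.19 for MYB29A2, 2.74 for IFS2 and 1.59 for IFS1. In Jack it was -1.36 for G4DT, -1.31 for CHI1B2 and -1.09 for CHI1A, and these 3 were called with replicate 1 of leaf Jack with NaCl and not without it.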

How the results depend on the processing

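Over all alternatives, 1699 of 1782 values of the 9 genes stayed on their side of the threshold, 50 lost a call and 33 gained one. The sign changed in 15, none of them called in either fit. Of the counts of called genes, that for NaCl in GmNFYA leaf (3) was 6 with DESeq2 and 7 with only the groups compared. For GmNFYA against Jack in NaCl leaf (2) it was 5 with DESeq2, 1 with no filter, 0 with only the groups compared and 0 to 3 when single libraries were left out. The leaf interaction (1) was 3 with DESeq2 and 1 to 2 without single libraries. GmNFYA against Jack in NaCl root (2) ran from 1 to 3, and the tissue by NaCl interaction in Jack (3) from 0 to 5, without single libraries. The cause of these moves was not tested. The replicate numbers are shared between groups, but the correlation of same-numbered deviations ran from -0.16 to 0.29 and was over 0.1 for all 3 numbers in no comparison, so that they were not taken as pairs. With the replicate block, 4 genes were called for NaCl in GmNFYA leaf (IFS2 added, -0.95, adjusted p = 0.0187) and 2 for GmNFYA against Jack in NaCl root (CHI1B2 in place of CHI1A), and no other count of called genes changed. The count over all IDs for NaCl in Jack leaf was 11823, and 7498 with only the groups compared. For the untreated leaf genotypes it was 1590, 2863 with DESeq2 and 511 to 1761 without single libraries. For the leaf interaction it was 863, 1908 with DESeq2, 1385 with the replicate block and 229 to 1339 without single libraries. Without single libraries it was 1527 to 3307 for NaCl leaf genotypes (3384), 5648 to 8622 for untreated root genotypes (8490) and 3868 to 6214 for NaCl root genotypes (6168). RLE scaling changed no count of called genes among the 9.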
